A study of Arabidopsis thaliana with 6 samples.

Results

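The genes described here belong to the salicylate branch of defence in Arabidopsis thaliana. They are PAD4 (AT3G52430), EDS1 (AT3G48090), SAG101 (AT5G14930), ICS1 (AT1G74710), EDS5 (AT4G39030), PBS3 (AT5G13320), NPR1 (AT1G64280), PR1 (AT2G14610), PR2 (AT3G57260) and PR5 (AT1G75040). Their probes were found by locus, through the RefSeq accession that the array design gives each probe, with no measured value in the rule, although the list was drawn up with earlier results of these data known. They make up 10 of the 21300 genes measured, and 20 of the 34285 probes that could be tied to 1 locus. The scanner software marked 17 of the 20 probes as well above background on all 6 arrays, and 9 of the 10 genes had such a probe on every array. PR1 was the exception, with a signal well above background on 1 array.

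The study asked what followed when a construct named AMY3C-EY was switched on in the shoot tip. Every plant carried XVE, a chimeric transcription factor that estradiol activates. Plants of 5 groups also carried AMY3C-EY, whose product is not described in the labels, and plants of the last group carried XVE alone as the negative control. AMY3C-EY plants were left untreated (0 h), or were harvested 1 h, 3 h or 6 h after 20 µM 17-β-estradiol was brushed on the meristem, or 6 h after DMSO, the solvent, was brushed on. The XVE-only plants were harvested 6 h after estradiol. Plants were 21 days old, and shoot apical meristem with juvenile leaves from 30 plants was pooled for each RNA sample. The promoter driving XVE and the number of transformed lines behind each group are not given in the sources used here.

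Each group was 1 pool on 1 single-colour array, so nothing below has a replicate behind it and no test could be run. The precision of every value is limited by the number of arrays. A level below is the log2 of the scanner's processed signal minus the log2 of that array's 75th percentile, averaged over the gene's probes. Levels can be compared between arrays for 1 gene, but not between genes. A difference counted only when it reached 2-fold, which is 1 on the log2 scale, between 2 arrays that both showed the gene well above background. The untreated, 1 h, 3 h and 6 h estradiol arrays shared 1 slide and scan, and the DMSO and XVE-only arrays shared another. For any comparison across the slides, the treatment or genotype and the slide or scan cannot be told apart. Within the time course, estradiol, brushing and time of harvest cannot be told apart either, because DMSO was sampled only at 6 h.

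The 75th percentile of the arrays ran from 341.6 on the XVE-only array to 1435 on the 3 h array, 67.9% to 77.5% of spots were well above background, and no spot was saturated. The labelled tissue was checked against its markers. The meristem genes STM, CLV3, KNAT1, CLV1 and CUC2 were well above background on all 6 arrays, and none of the 5 differed by 2-fold in any comparison. The root markers RHD6 and NRT2.1 were well above background on 1 and 2 of the 6 arrays. Of the floral markers, AP1 and PI were well above background on all 6 arrays, AG on 4 and AP3 on 1. AP1 was 2-fold below 0 h in XVE-only plants (-1.03). The senescence marker SAG12 was well above background on 1 array. Leaf photosynthesis genes moved with the XVE-only array, where 3 of 5 (RBCS1A, RCA and LHCB3) were at least 2-fold above 0 h with a median difference of 1.01 over the 5. Of 6 vascular and epidermal markers, SUC2 was 1.19 above 0 h after DMSO and 2.26 above in XVE-only plants. KAT1 was below 0 h by 2-fold or more over the estradiol course (-1.02, -1.12 and -1.23), FAMA at 6 h (-1.11), and GL2 at 1 h (-1.14) and in XVE-only plants (-1.30). These markers did not move together. FAMA read -2.42 at 1 h against -2.96 at 0 h. MYB60 was lowest at 0 h (-3.38) and read -2.93, -2.47 and -3.27 over the estradiol course. In bulk tissue of this kind, fewer cells of a type and less RNA per cell cannot be told apart.

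Plants make salicylate mainly from chorismate in the plastid, and the hormone then switches on defence genes through the receptor and co-activator NPR1. EDS1, paired with PAD4 or SAG101, relays signals from intracellular immune receptors and raises salicylate synthesis, and salicylate in turn raises EDS1 and PAD4 transcripts. The pathway is best known in leaves challenged by biotrophic pathogens, where PR1, PR2 and PR5 are the classical read-outs.

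Averaged over their probes, the receptor-relay genes PAD4 and EDS1 had their highest levels on the XVE-only array, although the brightest probe of each was highest at 1 h of estradiol. PAD4 encodes a lipase-like partner of EDS1, and it read -3.12 at 0 h, -2.43, -2.94 and -2.78 at 1 h, 3 h and 6 h of estradiol, -2.13 after DMSO and -1.56 in XVE-only plants. Both slide 2 arrays lay above all 4 arrays of the time course. Its brightest probe instead read -0.17 at 1 h and -0.18 in XVE-only plants. Against 0 h, PAD4 was 2.94-fold higher in XVE-only plants (log2 difference 1.55), and the difference after DMSO was 0.98, just under the 2-fold line. At 1 h of estradiol it was 0.68 above 0 h, and at 3 h and 6 h it was 0.18 and 0.34 above.

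EDS1 encodes the lipase-like protein shared by both complexes. Its level was -2.03 at 0 h, -1.57, -1.92 and -1.93 at 1 h, 3 h and 6 h of estradiol, -1.55 after DMSO and -0.98 in XVE-only plants. The 2 slide 2 arrays were again the highest, although DMSO and 1 h of estradiol were nearly level. The XVE-only array was 2.07-fold above 0 h (log2 difference 1.05). The 3 probes of EDS1 disagreed on the size of that difference, which was 0.37, 0.94 and 1.84. The first of these, the brightest, read 1.23 at 1 h of estradiol and 1.06 in XVE-only plants. Its tandem neighbour EDS1B, a close copy with no protein-coding gene between them, was 1.19 above 0 h at 6 h of estradiol, 1.01 after DMSO and 1.24 in XVE-only plants. Signal shared between the copies was not tested.

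SAG101, the other partner of EDS1, did not share the high slide 2 values. It read -1.92 at 0 h, -1.25, -1.75 and -1.77 at 1 h, 3 h and 6 h of estradiol, -2.01 after DMSO and -2.00 in XVE-only plants. The 1 h array was the highest, at 0.67 above 0 h. Its 3 probes gave 1.32, 0.48 and 0.20 at 1 h, and the last of these was not well above background on 4 arrays, both of slide 2 among them. The low slide 2 means rest on that dim probe, since neither of the others had both slide 2 arrays lowest.

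The synthesis genes moved in different directions. ICS1 encodes isochorismate synthase, the enzyme that commits chorismate to salicylate in the plastid. Its level was highest before treatment, at -1.98, and was -2.25 at 1 h, -2.51 at 3 h, -2.37 at 6 h, -2.53 after DMSO and -2.94 in XVE-only plants. All 5 later arrays lay below 0 h, with log2 differences from -0.27 at 1 h to -0.96 in XVE-only plants, and none reached 2-fold. Its 2 probes were both lower in XVE-only plants, but had opposite signs at 1 h, at -0.71 and 0.16.

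EDS5 encodes the transporter that carries the ICS1 product out of the plastid. It read -2.78 at 0 h, -1.76, -1.92 and -2.17 at 1 h, 3 h and 6 h of estradiol, -1.97 after DMSO and -2.42 in XVE-only plants. The untreated array was the lowest of the 6 and 1 h the highest, and the slides overlapped. At 1 h the gene was 2.02-fold above 0 h (log2 difference 1.02), with 0.84 and 1.19 from its 2 probes. By 6 h of estradiol the difference was 0.61.

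PBS3 encodes the enzyme that joins isochorismate to glutamate, giving the conjugate from which salicylate forms. It read -3.38 at 0 h, -4.33, -3.41 and -3.39 at 1 h, 3 h and 6 h of estradiol, -2.14 after DMSO and -2.88 in XVE-only plants. The 1 h array was the lowest, the 3 h and 6 h arrays matched 0 h closely, and the means of both slide 2 arrays were above the time course. After DMSO, PBS3 was 2.36-fold above 0 h (log2 difference 1.24). The 2 probes differed widely here, with 1.99 from one and 0.49 from the other, and in XVE-only plants they gave 1.01 and -0.01. The first of them was not well above background at 1 h, so the low 1 h value rests on a dim signal.

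NPR1, the salicylate receptor that co-activates defence genes with TGA transcription factors, varied by less than 2-fold. It read -0.80 at 0 h, -0.47, -0.64 and -0.98 at 1 h, 3 h and 6 h of estradiol, -0.57 after DMSO and -0.03 in XVE-only plants. The XVE-only array was the highest and 6 h of estradiol the lowest, 0.95 apart on the log2 scale.

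Among the read-out genes, PR2 showed the widest differences from 0 h between arrays well above background. PR2 encodes a secreted β-1,3-glucanase, and its level was -3.71 at 0 h, -2.83, -2.42 and -1.79 at 1 h, 3 h and 6 h of estradiol, -1.87 after DMSO and -1.45 in XVE-only plants. Each time of the estradiol course lay above the one before, and all 3 arrays at 6 h were above the earlier ones. Against 0 h, PR2 was 2.43-fold higher at 3 h, 3.78-fold at 6 h, 3.57-fold after DMSO and 4.79-fold in XVE-only plants. The DMSO and XVE-only arrays lay on the other slide from 0 h, so treatment or genotype cannot be told apart from the slide. Log2 differences between the 3 arrays at 6 h ran from -0.42 to 0.08. A level higher at each later time and at least 2-fold higher at 6 h was found for 0.567% of the 18515 genes that could be judged, a pattern picked out after the values of PR2 were seen. PR2 has 1 probe, so no second probe checks it.

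PR5 encodes a thaumatin-like protein. It read -1.88 at 0 h, -1.75, -1.49 and -1.54 at 1 h, 3 h and 6 h of estradiol, -0.89 after DMSO and -0.79 in XVE-only plants. Both slide 2 arrays lay above every array of the time course. PR5 was 2.12-fold above 0 h in XVE-only plants (log2 difference 1.09), and 0.99 above after DMSO. Its 2 probes gave 1.09 and 1.08 in XVE-only plants and 0.88 and 1.11 after DMSO.

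PR1, a small secreted protein and the standard marker of the salicylate response, was well above background on the DMSO array alone, at -3.74. Its signals on the other arrays were not well above background and do not measure its level. They were -6.66 at 0 h, -6.49, -5.50 and -5.18 at 1 h, 3 h and 6 h of estradiol and -5.29 in XVE-only plants. A lower bound on the ratio sets the DMSO signal against the dimmest signal that counted as well above background on the other array. By that bound PR1 after DMSO was at least 1.52-fold higher than at 0 h, at least 2.62-fold higher than at 6 h of estradiol and at least 1.27-fold higher than in XVE-only plants. PR1 has 1 probe.

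**Figure D1:**
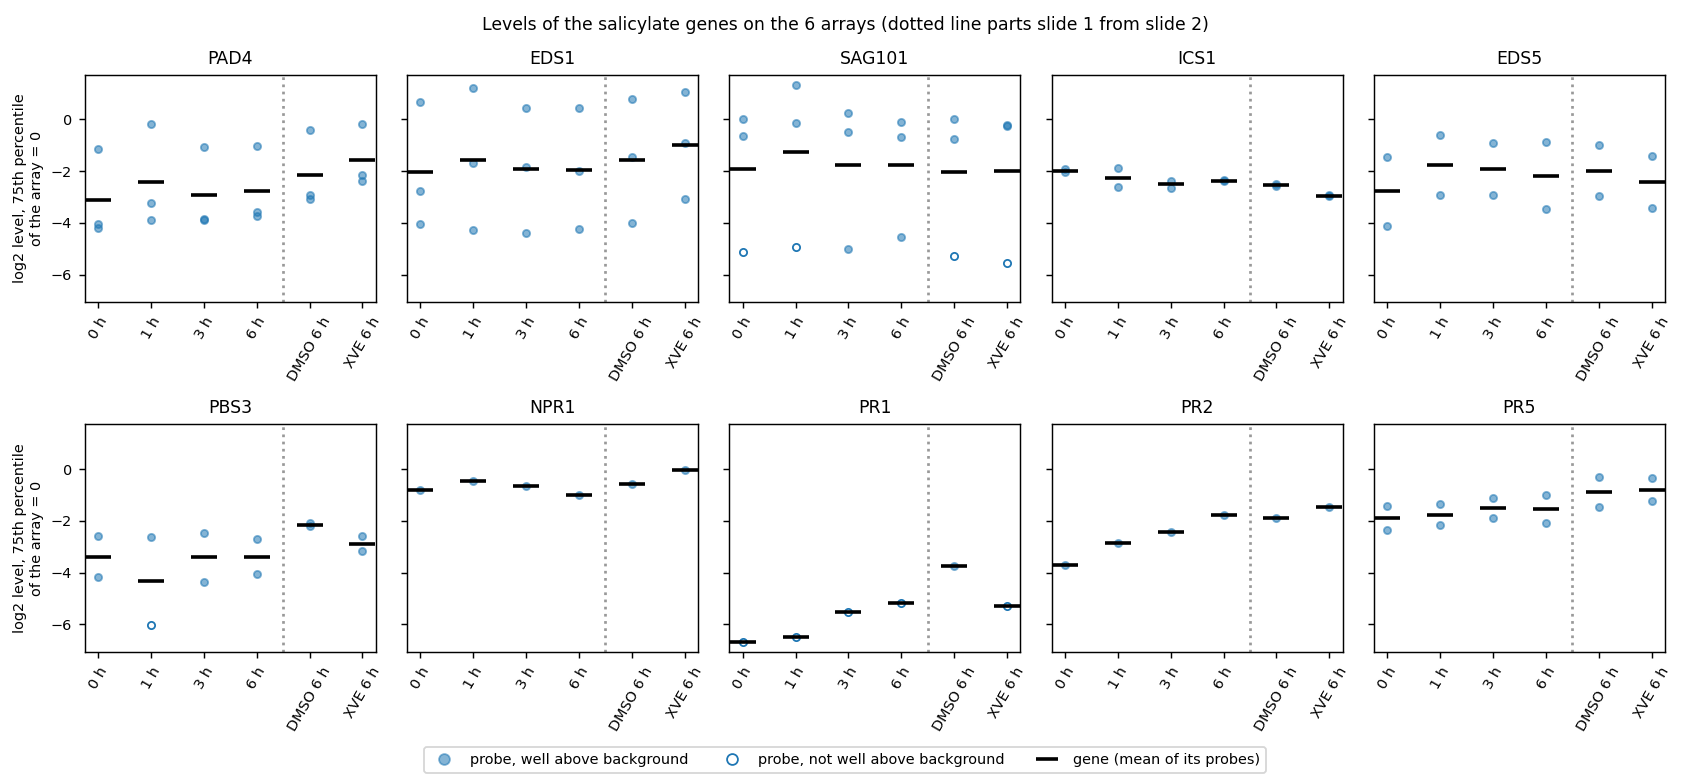
Levels of the 10 genes on the 6 arrays, 1 panel per gene. The y axis is the log2 signal relative to the array's 75th percentile, points are single probes, bars are gene means and the dotted line separates the slides; PR2 climbs from -3.71 to -1.79 over the estradiol course, while the mean of ICS1 is highest at 0 h.

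Counted over the genes, few differences from 0 h reached 2-fold during the estradiol course and more did on slide 2. These comparisons share the 0 h array. At 1 h, EDS5 was the 1 gene of 9 that was at least 2-fold higher and none was lower, while 6.31% of all 18553 genes judged were higher and 6.38% were lower. At 3 h, PR2 was again 1 of 9, against 2.38% higher and 5.0% lower over all genes. At 6 h, PR2 was the 1 of 9, against 2.61% higher and 2.84% lower. After DMSO, 2 of 9 (PBS3 and PR2) were higher, against 4.61% higher and 4.07% lower of all genes. In XVE-only plants 4 of 9 (PAD4, EDS1, PR2 and PR5) were higher and none lower, against 7.25% higher and 7.25% lower. The leaf photosynthesis genes were high on that same array, with a median of 1.01 above 0 h, and their part in the 4 differences was not tested.

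Over the 9 genes the median difference from 0 h came to 0.46 at 1 h, 0.17 at 3 h and 0.14 at 6 h of estradiol, 0.80 after DMSO and 0.77 in XVE-only plants. By each gene's brightest probe the order differed, with 0.53 at 1 h, 0.48 after DMSO and 0.37 in XVE-only plants. The corresponding medians over all genes were -0.08, -0.05, -0.06, -0.02 and -0.02. A list of 7 widely used reference genes had medians of 0.27, 0.23, 0.02, 0.23 and 0.32. The division of all genes into higher and lower depended on the scaling. Higher genes made up 49.7% of those past 2-fold at 1 h, but 60.6% after cyclic loess. The share was 32.2% at 3 h, but 45.4% after quantile and 44.1% after normexp scaling, and 47.8% at 6 h, but 63.6% after normexp.

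Of the differences from 0 h past 2-fold, those of EDS5, EDS1, PR5, PBS3 and PAD4, and that of PR2 at 3 h, fell short of 2-fold under at least 1 alternative. With normexp background correction, EDS5 at 1 h was 0.74, PR2 at 3 h 0.73 and PBS3 after DMSO 0.72, while PAD4, EDS1 and PR5 in XVE-only plants were 0.998, 0.73 and 0.87. Taking each gene's brightest probe gave 0.84 for EDS5 at 1 h, 0.49 for PBS3 after DMSO, and 0.96 for PAD4 and 0.37 for EDS1 in XVE-only plants. PR2 was at least 2-fold above 0 h on the 3 arrays at 6 h under all 8 alternatives, from 1.05 to 2.36 on the log2 scale. PR2 has 1 probe, well above background on all 6 arrays. Taking the brightest probe, no filter on dim probes or only genes bright on all 6 arrays therefore could not change its value. The authors' table and median scaling differ from the main levels by 1 constant per array. That leaves quantile, cyclic loess and normexp as the alternatives that could move PR2 further.

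**Figure D2:**
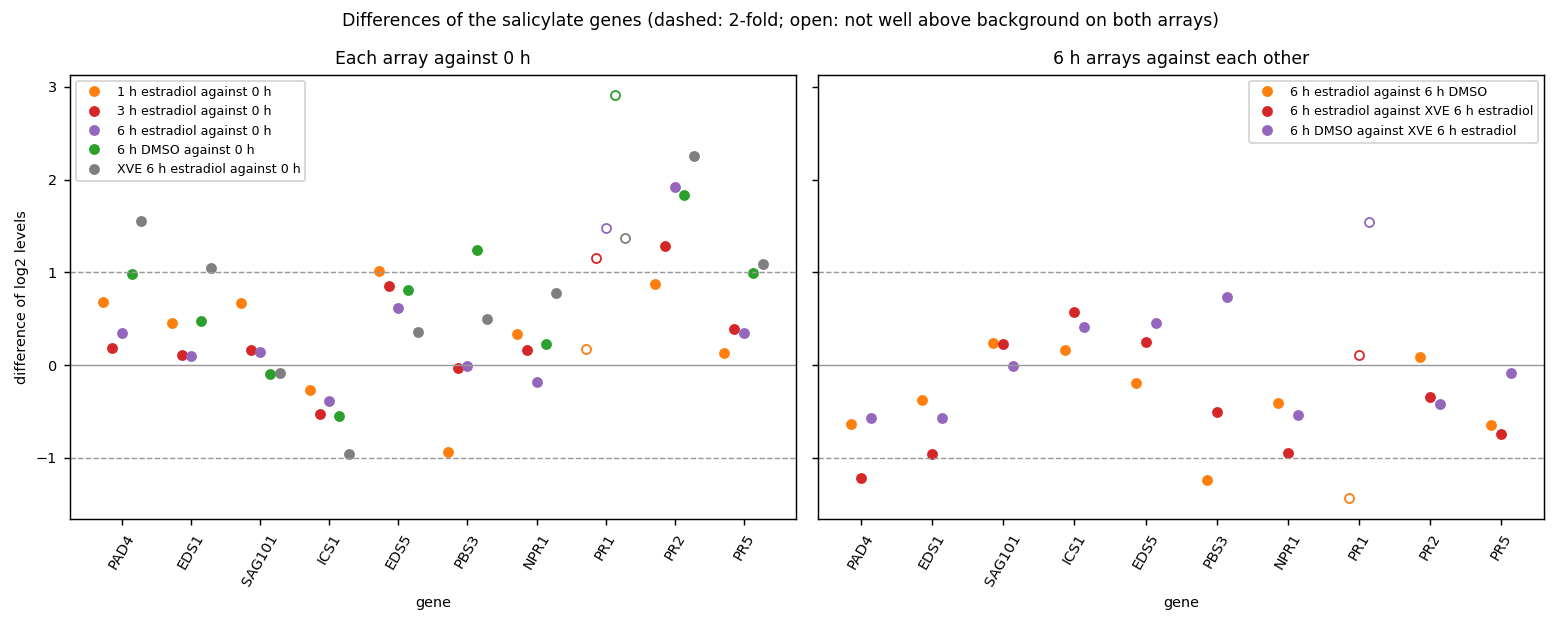
Log2 differences of the 10 genes, from the 0 h array on the left and between the 3 arrays at 6 h on the right. The x axis holds the genes, the y axis is the log2 difference, colours are the comparisons and lines at 1 and -1 mark 2-fold. PR2 reaches 1.92 at 6 h of estradiol and 2.26 in XVE-only plants.

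The 3 arrays at 6 h set estradiol in AMY3C-EY plants beside a solvent control and a control without the construct, but on different slides, so neither estradiol nor the construct can be told apart from the slide. Under estradiol in AMY3C-EY plants 6 of the 9 genes lay below each control, all but 1 of them in each case by less than 2-fold. Over all genes, 10168 of 19220 lay below DMSO and 9345 of 18585 below XVE-only plants. All 7 reference genes lay below DMSO, with a median of -0.23, and 5 of 7 below XVE-only plants, with a median of -0.29. Against DMSO, no gene of 9 was at least 2-fold higher and PBS3 was 2.37-fold lower (log2 difference -1.24), while 1.51% of all 19220 genes were higher and 2.42% lower. The median over the 9 genes was -0.38, with 6 below DMSO and 3 (SAG101, ICS1 and PR2) above it. The place of SAG101 rests on its dim probe (0.73), since the others gave -0.09 and 0.08. Of the 5 leaf photosynthesis genes 4 lay below DMSO, 1 of them by 2-fold, with a median of -0.81, and their part was not tested. The 2 probes of PBS3 gave -1.87 and -0.62, and PBS3 was -0.76 with normexp.

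Against XVE-only plants under the same estradiol, PAD4 was 2.32-fold lower (log2 difference -1.21), and no gene of 9 was higher. Over all 18585 genes 3.7% were higher and 5.22% lower. EDS1 and NPR1 each had a log2 difference of -0.95, short of 2-fold, and the median over the 9 genes was -0.51. PAD4 was -0.89 with normexp and -0.84 by its brightest probe. In the same comparison the median of the 5 leaf photosynthesis genes was -1.62, and 3 of 5 lay at least 2-fold lower, and their part in the PAD4 difference was not tested. The comparison of DMSO with XVE-only plants, both on slide 2, held no member past 2-fold in either direction. There 2.06% of all 18484 genes were higher and 2.01% lower, and the median over the 9 genes was -0.09. PBS3 was the farthest above zero in DMSO, at 0.74, and PAD4 and EDS1 were both at -0.57.

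**Figure D3:**
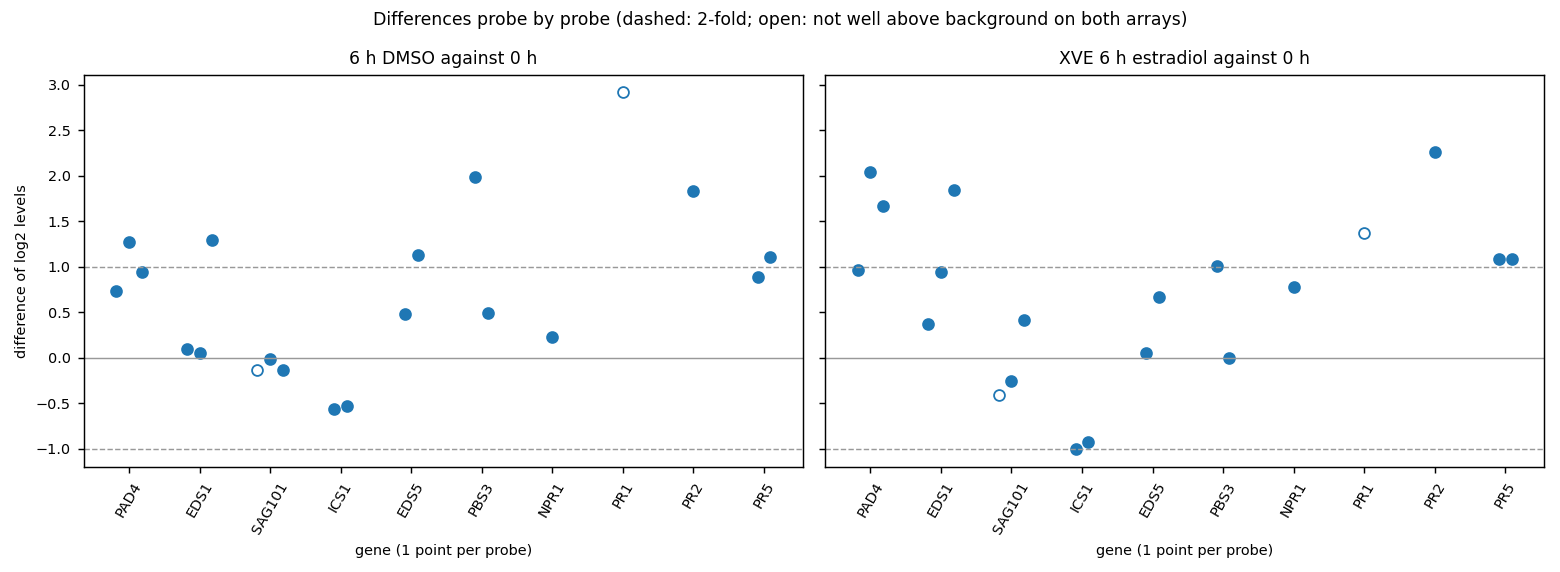
Differences of each probe from 0 h on the DMSO and XVE-only arrays. The x axis holds the genes, the y axis is the log2 difference, each point is 1 probe and lines at 1 and -1 mark 2-fold. The EDS1 probes spread from 0.37 to 1.84 in XVE-only plants, while the PR5 probes lie at 1.09 and 1.08.

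Of the 9 genes measured well above background throughout, 4 (PAD4, EDS1, PBS3 and PR5) were higher on both slide 2 arrays than on all 4 arrays of slide 1, 2 (SAG101 and ICS1) were lower, and EDS5, NPR1 and PR2 overlapped, all by the mean over probes. PR5 was the 1 gene of these 6 in which every probe divided the slides. Over all 17996 such genes, 14.2% were higher on both slide 2 arrays and 13.4% lower. Because slide 2 holds no untreated or early array, the slide, the scan and the 6 h controls cannot be told apart for these genes.

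Around these genes, 53 of 60 other listed genes of the pathway were measured. At 1 h, 12 of 45 that could be judged were at least 2-fold above 0 h and 1 was lower. The counts were 5 higher and 1 lower of 46 at 3 h, 8 and 3 of 46 at 6 h, 13 and 1 of 46 after DMSO, and 16 and 1 of 43 in XVE-only plants. Over all genes, 6.31% were higher and 6.38% lower at 1 h, 2.38% and 5.0% at 3 h, and 2.61% and 2.84% at 6 h. The shares were 4.61% and 4.07% after DMSO, and 7.25% each way in XVE-only plants. The lists were chosen with earlier results of these data known. The medians of the listed genes were 0.38, 0.23, 0.19, 0.27 and 0.51, against the medians over all genes given above.

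The regulators of ICS1 did not run in parallel with ICS1 itself. SARD1, a transcription factor that binds the ICS1 promoter, read -2.48 at 0 h, -2.33, -2.47 and -1.52 at 1 h, 3 h and 6 h of estradiol, -0.26 after DMSO and 0.24 in XVE-only plants. Its 3 lowest levels were the 3 earliest arrays and its 2 highest were those of slide 2, with differences of 2.22 and 2.72 from 0 h. WRKY28, another activator of ICS1, read -3.71 at 0 h, -0.23, -1.81 and -1.70 at 1 h, 3 h and 6 h of estradiol, -1.66 after DMSO and -2.33 in XVE-only plants. It peaked at 1 h, 3.48 above 0 h. CAMTA3, a calmodulin-binding repressor of salicylate defence, was 1.28 above 0 h at 1 h and within 0.16 on the other arrays. CBP60g, the close relative of SARD1, stayed under 2-fold, at most 0.66 above 0 h.

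At 1 h, 3 of the 6 other synthesis genes measured were at least 2-fold above 0 h, while PAL3 lay below it (-0.14). EPS1, which acts after PBS3 and speeds the release of salicylate from its product, was 1.33 above 0 h. PAL1 and PAL2, phenylalanine ammonia-lyases that feed the alternative route, were 1.26 and 1.35 above. At 6 h of estradiol, 2 of the 6 synthesis genes, PAL3 and PAL4, lay below 0 h at -1.40 and -1.32, and none was 2-fold higher. The PAL3 level there (-5.03) was close to the dimmest signal well above background on that array (-5.13). The turnover genes had 3 of 6 at least 2-fold above 0 h at 1 h, 6 h, after DMSO and in XVE-only plants, and 2 of 6 at 3 h. For these counts of synthesis and turnover genes, the shares over all genes are those given above. DMR6, a salicylate hydroxylase, read -2.44 at 0 h, -0.68, -1.48 and -0.96 at 1 h, 3 h and 6 h of estradiol, -0.07 after DMSO and 0.09 in XVE-only plants. UGT74F2, a salicylate glucosyltransferase, read -3.71, -2.52, -2.20, -1.25, -1.25 and -1.24 in the same order. Like PR2, it was lowest at 0 h, higher at each later time and nearly level on the 3 arrays at 6 h. MES9, a methyl salicylate esterase, was 1.11 to 2.06 above 0 h over the estradiol course and 1.20 and 1.08 above on slide 2.

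Other outputs of the pathway showed more genes past 2-fold on slide 2 than in the estradiol course. Of the 9 that could be judged, 3 were higher at 1 h, 2 at 3 h, 3 at 6 h, 6 after DMSO and 6 in XVE-only plants, and none was lower. Over all genes, 6.31%, 2.38%, 2.61%, 4.61% and 7.25% were higher in that order. Those at 1 h were WRKY18 (1.60), WRKY53 (2.09) and the glutaredoxin gene ROXY19. WRKY18 and WRKY53 were highest at 1 h. ROXY19 was highest in XVE-only plants (-2.14), against -2.28 at 1 h and -3.79 at 0 h. WRKY53 and ROXY19 were also at least 2-fold above 0 h on both slide 2 arrays. Those past 2-fold on all 3 arrays at 6 h included LURP1 and PCC1, both known as pathogen-responsive genes. LURP1 read -4.40 at 0 h, -4.40, -3.94 and -2.79 at 1 h, 3 h and 6 h of estradiol, -1.99 after DMSO and -1.40 in XVE-only plants. PCC1 read 0.26, -0.71, 0.66, 2.35, 2.43 and 3.32 in that order. In both, all 3 arrays at 6 h lay above the 3 early arrays, although the DMSO and XVE-only arrays were on the other slide. The 0 h mean of LURP1 lay below the dimmest signal well above background on that array (-4.34). Its 1 h mean was close to that limit on the 1 h array (-4.52), so its differences from these arrays rest on dim signals. WRKY54 was not well above background at 0 h and was at least 4.85-fold higher at 6 h of estradiol, at least 11.1-fold after DMSO and at least 12.2-fold in XVE-only plants.

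At 6 h the outputs lay lower under estradiol in AMY3C-EY plants than in XVE-only plants for 11 of 12 genes, and 5 of 12 by at least 2-fold, among them ACD6 (-1.48) and LURP1 (-1.39). Against DMSO, 12 of 13 were lower, and 1, WRKY54, by at least 2-fold (-1.19). SARD1 differed in the same sense, at -1.26 against DMSO and -1.76 against XVE-only plants. Over the 7 pathway lists together, 1 of 52 was at least 2-fold higher than DMSO and 2 lower, and 0 of 47 was higher than XVE-only plants and 8 lower. Of all genes, 1.51% were at least 2-fold higher than DMSO and 2.42% lower. Against XVE-only plants the shares were 3.7% and 5.22%. Over all genes 9345 of 18585 lay below XVE-only plants and 10168 of 19220 below DMSO. The leaf photosynthesis genes had medians of -1.62 and -0.81 in these contrasts, which also separate the slides, and their part was not tested.

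**Figure D4:**
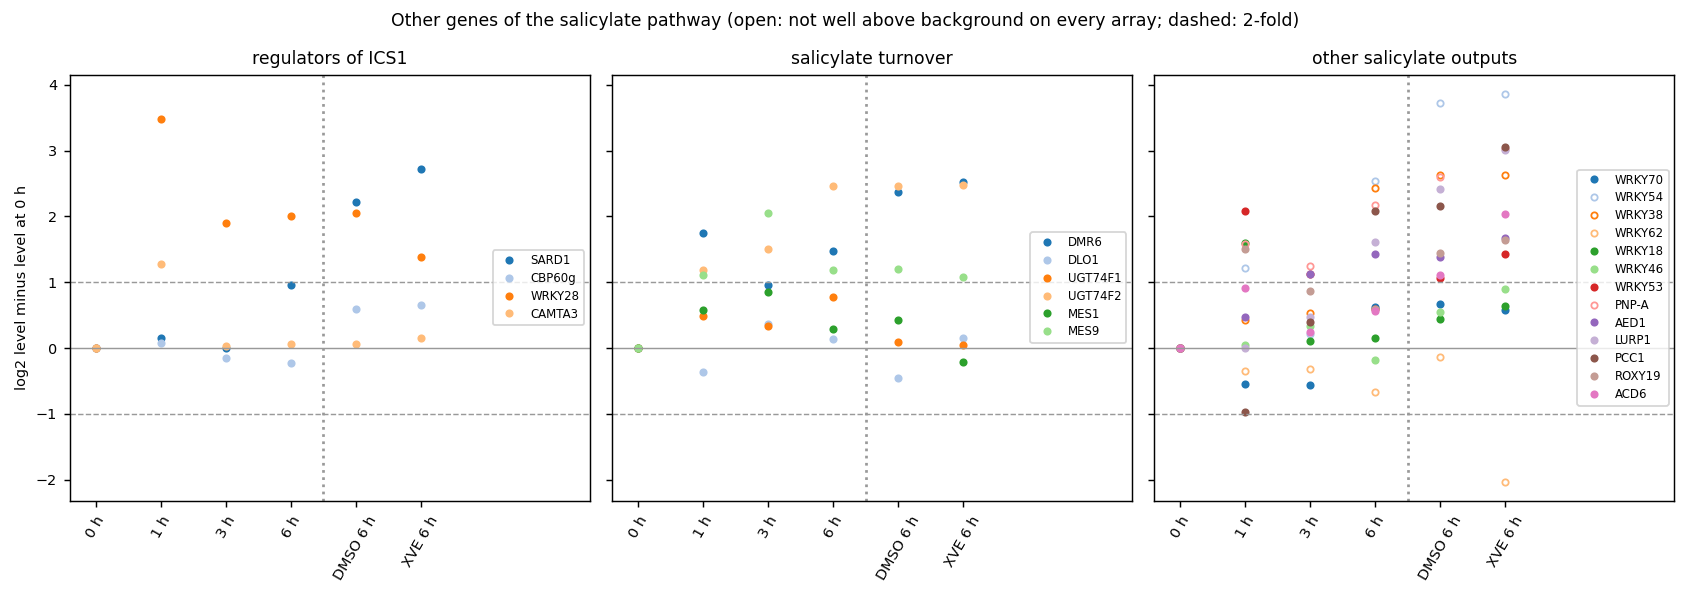
Regulators of ICS1, salicylate turnover genes and other outputs, as the level on each array minus the level at 0 h. The y axis is the log2 difference, each colour is 1 gene, open points are genes not well above background on every array, dashed lines mark 2-fold and the dotted line separates the slides; WRKY28 peaks at 1 h (3.48) and SARD1 is highest in XVE-only plants (2.72).

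Close relatives of the members were compared with them where the array measured both. ICS2, the minor isochorismate synthase, read -4.27 at 0 h, -4.06, -3.75 and -3.35 at 1 h, 3 h and 6 h of estradiol, -4.54 after DMSO and -4.31 in XVE-only plants, the last of these not well above background. It was highest at 6 h of estradiol, where ICS1 was below 0 h. It was 1.20 above DMSO there, but its DMSO level was close to the dimmest signal well above background on that array (-4.56). BG3, a glucanase gene with 1 protein-coding gene between it and PR2, was not well above background at 0 h and was at least 2.28-fold higher at 6 h of estradiol and at least 2.34-fold higher in XVE-only plants. BG1, directly beside PR2, had log2 differences from 0 h between -0.42 and 0.05. PRB1, the gene next to PR1, read -3.60 at 0 h, -3.99, -3.53 and -3.74 at 1 h, 3 h and 6 h of estradiol and -3.67 after DMSO, and was not well above background in XVE-only plants. It was not high on the DMSO array, where PR1 was.

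The jasmonate pathway, which often opposes salicylate, is a comparator for the time course. AOS, which encodes allene oxide synthase of jasmonate synthesis, read 0.92 at 0 h, 3.62, 3.20 and 1.47 at 1 h, 3 h and 6 h of estradiol, 1.54 after DMSO and 2.18 in XVE-only plants, so its high values were early. LOX2, a lipoxygenase of the same pathway, instead read -1.86 at 0 h, 0.27, 0.67 and 0.86 over the estradiol course, 0.91 after DMSO and 1.11 in XVE-only plants. VSP2, a jasmonate-responsive storage protein gene, read 0.57, 0.89, 2.35, 2.81, 3.19 and 2.51 in that order, so both were lower at 0 h and 1 h than on the 3 arrays at 6 h. JAZ10, a jasmonate repressor gene, peaked at 1 h, 2.17 above 0 h. PDF1.2a, a defensin gene driven by jasmonate and ethylene, was not well above background on the 4 arrays of slide 1 and read -2.30 after DMSO and -2.67 in XVE-only plants. It was at least 7.11-fold lower at 6 h of estradiol than after DMSO, and at least 5.53-fold lower than in XVE-only plants. PR1 and PDF1.2a thus shared their highest array.

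The genes whose pattern over the 6 arrays was most like PAD4 were sought among 17995 others measured well above background throughout. Likeness was the root mean square difference of log2 levels after each gene's own mean was taken off. The 4 nearest were AT3G23480 (0.0894), the thioredoxin gene ATHM2 (0.0957), AT4G02725 (0.0993) and PSBO1 (0.125), a subunit of photosystem II. All 4 had their highest level on the XVE-only array, where PAD4 was highest. This follows from choosing them by likeness to PAD4 and is not a separate result. ICS1 varied by less than 2-fold over the arrays and PR1 was dim on 5, so neither was ranked this way.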

How the data were processed

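Each of the 6 RNA pools was labelled with Alexa 555 and read on 1 single-colour Agilent array. The scanner files hold spot intensity values that, per the file headers, the authors' Feature Extraction software background-corrected, and the version given by the submitters' processing notes is 10.5.1.1. The authors also deposited a log2 table with column medians of -2.08 (0 h), -2.12 (1 h), -2.14 (3 h), -2.11 (6 h), -2.14 (DMSO) and -2.08 (XVE-only). Set against the log2 processed signal of the same array, the probes that differed by a constant, to within 0.01, rounded to 100.0% on every array, so its scale and direction are those of the scanner values and its centring is 1 constant per array.

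Levels here are the log2 processed signal minus the log2 of the array's 75th percentile over 43803 non-control spots. Flagged outlier spots were left out, which removed 139 of 43603 probes. A gene's value was the mean over its probes that stood well above background somewhere. The array's accessions were matched to loci through RefSeq's TAIR10.1 gene table, used for names and gene order only, since the array design was annotated on another build. Of the probes, 34285 matched 1 locus and 9318 none. With 1 array per group no test was run. A ratio to a gene not well above background is a lower bound, the bright level against the lowest signal well above background on the dim array, or the dim probe's own signal where higher.

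All 10 members were named, with up to 4 genes per pathway list and comparison by size of difference and any gene a result turned on. The members and lists were chosen with earlier results of these data known. The 8 alternatives were quantile, cyclic loess and median scaling, normexp (offset 50, on median signals) with quantile scaling, no filter on dim probes, the authors' table, only genes bright on all 6 arrays, and the brightest probe. R 4.3.3 and limma 3.58.1 were used, and the counting was tested on simulated data. Promoter motifs were not analysed here.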

Additional observations from a re-analysis of the deposited data

How the results depend on the processing

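With the authors' table, with median scaling and with only genes bright on all 6 arrays, all 39 results on the members counted as unchanged. Little could change under these. The authors' table and median scaling differ from the main levels by 1 constant per array. Keeping only genes bright on all 6 arrays left out PR1 alone of the members, which no comparison had judged. A count was unchanged if equal or within a ratio of 1.5, and a median if it shifted by less than 0.25. A single gene's difference was unchanged if it stayed on its side of the 2-fold line. The other alternatives moved some counts of members past these limits. With normexp, members at least 2-fold above 0 h numbered 0 at 1 h, 0 at 3 h, 1 after DMSO (median 0.52) and 1 in XVE-only plants, and 0 were lower at 6 h of estradiol than either control. With no filter, 2 were higher at 3 h, 2 at 6 h, 2 were lower than DMSO at 6 h and 1 was higher in DMSO than in XVE-only plants. Within the limits, no filter also gave 3 higher after DMSO and 5 in XVE-only plants. In each of these no-filter counts the added gene was PR1, for example at 1.16 at 3 h and 1.48 at 6 h. Its signals outside the DMSO array do not measure its level. By the brightest probe, the 6 h median turned from 0.14 to -0.11, the DMSO median was 0.48, XVE-only plants had 2 higher with a median of 0.37, and 0 were lower at 6 h than either control. Quantile and cyclic loess scaling each gave 4 higher after DMSO, and cyclic loess gave 2 lower than XVE-only plants. PAD4 and PR5 after DMSO crossed 2-fold under quantile (1.09 and 1.03) and cyclic loess scaling (1.12 and 1.04), and PR5 by its brightest probe (1.11), as did SAG101 at 1 h by its brightest probe (1.32) and EDS1 at 6 h against XVE-only plants under cyclic loess (-1.03). The cause of the other shifts was not tested.

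Over all genes, normexp gave 708 higher and 488 lower at 1 h, 230 and 291 at 3 h, 283 and 162 at 6 h, 469 and 299 after DMSO, and 739 and 719 in XVE-only plants, against 0 h. For 6 h of estradiol it gave 137 and 192 against DMSO and 388 and 453 against XVE-only plants, and 180 and 145 for DMSO against XVE-only plants. With no filter these were 1840 and 1952, 913 and 3911, 992 and 1254, 1395 and 1743, and 2408 lower in XVE-only plants, then 894 and 880, 1409 and 4079, and 840 and 869. No paired analysis was possible because each group has 1 array. Signals near background limit PR1, PBS3 at 1 h, BG3, ICS2 after DMSO, LURP1 at 0 h and 1 h, and PAL3 at 6 h of estradiol. They also limit differences from 0 h, where the dimmest signal well above background was -4.34. Probes of PAD4 (-4.19 and -4.03), EDS1 (-4.03), EDS5 (-4.10) and PBS3 (-4.17) lay just above it. For PAD4 in XVE-only plants, EDS5 at 1 h and PBS3 after DMSO, these probes gave the larger differences.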
